A study of Mus musculus with 4 samples.

Results

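The genes described here encode 9 enzymes that make or use glutamine and glutamate: Gls2, Glul, Glud1, Got1, Got2, Gpt, Gpt2, Oat and Aldh18a1. They were taken by symbol from the 31054 features of the count tables, and all 9 were found. The tissue was kidney of male C57BL/6 mice, 19 months old at the start, which received the glutaminase inhibitor BPTES or its solvent DMSO for 1 month. Each group has 2 libraries, numbered as replicates 1 and 2, and each library was a mixture of 20000 sorted CD45-negative cells and 9000 sorted CD45-positive cells (leukocytes) of a kidney, read by droplet 3′ single-cell RNA sequencing. All animals were aged males, and no young or untreated kidney is among the groups. The questions are which cells express each enzyme and whether its transcript differs between BPTES and DMSO. The labels do not say how many animals a library holds, so the p-values below measure the spread between these libraries.

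Glutaminase releases ammonia from glutamine and leaves glutamate, and glutamate dehydrogenase, encoded by Glud1, releases a second ammonia while making 2-oxoglutarate. The kidney's proximal tubule uses these reactions to make ammonia for acid excretion and feeds the carbon into glucose. Glutamine synthetase (Glul) runs the other way and binds ammonia to glutamate, and aminotransferases move the amino group between glutamate and aspartate (Got1 in the cytosol, Got2 in mitochondria), alanine (Gpt in the cytosol, Gpt2 in mitochondria) or ornithine (Oat). Aldh18a1 encodes the enzyme that turns glutamate into glutamate semialdehyde, the start of proline synthesis. Gls2 encodes the liver-type glutaminase.

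On the mm10 build (GRCm38, GENCODE vM21 annotation) all 9 are protein-coding genes. Gls2 lies at chr10:128194457-128210004, Glul at chr1:153899944-153909723, Glud1 at chr14:34310727-34345265 and Gpt at chr15:76695716-76699686, each on the plus strand. Gpt2 (chr8:85492576-85527560, plus strand) and Got2 (chr8:95864134-95888547, minus strand) share chromosome 8, and Got1 (chr19:43499752-43524605) and Aldh18a1 (chr19:40550257-40588463), both on the minus strand, share chromosome 19. Oat (chr7:132557478-132576398, minus strand) lies whole inside the annotated span of Fgfr2 on the same strand, and how reads of such an overlap were assigned is not given in the sources used here, so its counts carry that uncertainty.

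Promoters of 3 genes are shown as examples of different patterns over the cell classes, all described below: Glud1 was the most evenly spread, Glul had its highest level in the small cluster 25, and Oat was lowest in PT S3. RefSeq's table (GRCm38.p6) matched 7 of the 9 genes, not Gls2 and Gpt. Each line gives the 250 bases before the start on the gene's own strand, 5′ to 3′, with matches to the searched motifs in capitals; the windows are chr14:34310477-34310726 (plus strand), chr1:153899679-153899928 (plus strand) and chr7:132576399-132576648 (minus strand).
Glud1: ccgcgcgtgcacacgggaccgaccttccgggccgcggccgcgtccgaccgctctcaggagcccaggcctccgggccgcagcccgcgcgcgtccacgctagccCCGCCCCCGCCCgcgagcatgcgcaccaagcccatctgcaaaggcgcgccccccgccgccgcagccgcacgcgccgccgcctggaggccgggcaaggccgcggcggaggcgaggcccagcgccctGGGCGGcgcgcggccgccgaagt
Glul: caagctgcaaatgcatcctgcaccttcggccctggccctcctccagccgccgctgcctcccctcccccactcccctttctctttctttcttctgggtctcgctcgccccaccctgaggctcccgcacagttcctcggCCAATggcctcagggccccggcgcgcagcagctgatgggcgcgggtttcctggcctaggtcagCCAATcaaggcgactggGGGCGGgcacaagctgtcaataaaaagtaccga
Oat: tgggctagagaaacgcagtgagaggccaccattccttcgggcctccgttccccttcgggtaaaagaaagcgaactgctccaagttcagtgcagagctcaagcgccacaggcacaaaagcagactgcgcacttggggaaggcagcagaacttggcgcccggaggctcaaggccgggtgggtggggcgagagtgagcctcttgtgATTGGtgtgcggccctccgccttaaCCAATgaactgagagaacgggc
Both strands were searched for 6 motifs: the TATA box TATAAA (in 12.4% of 32851 promoters of this length), the CCAAT box CCAAT (33.8%), the GC box GGGCGG (32.7%), an HNF1 core GTTAAT (6.43%), an HNF4 core CAAAGTCC (1.20%) and the amino acid response element TGATGNAA (3.45%). The Glud1 window held 3 GC boxes, of which 2 adjoin, the Glul window 2 CCAAT boxes and 1 GC box, and the Oat window 2 CCAAT boxes, 1 on each strand. Their G and C content was 82%, 64.8% and 60%, against a median of 52.4% over all promoters. These matches describe the letters in the windows and no more.

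The libraries held 17907 to 20091 barcodes and 249881074 to 297947661 UMIs (unique molecular identifiers, 1 per captured transcript), of which 10849 to 12076 cells per library were kept, and any pair of libraries shared 90 to 114 barcodes (0.503% to 0.581%). Cells were clustered without the 9 genes and 37 other genes of glutamine and glutamate metabolism, and clusters were named from marker genes, so a class name stands for cells "like" the type. Of 51 clusters, 5 (3289 cells, 7.04%) stayed unnamed, and 15 classes had at least 50 cells in every library and were tested. The proximal tubule classes are written PT S1-S2 and PT S3 after the segments whose markers they carry. The split is not clean: cluster 7 (2080 cells), counted as PT S1-S2, scored 2.74 for the S1-S2 list and 2.54 for the S3 list. Of the 8 S1-S2 markers, Slc13a3 and Slc22a6 were higher in PT S3 in every library, and of the 7 S3 markers Slc22a30 was lower there. Defining markers still separated them: Slc5a12 in PT S3 stood at 0.929% to 1.26% of its PT S1-S2 level. Levels are given as CPM, UMIs per 1e6 UMIs of the class sum, and they are compared within a gene, never between genes.

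Gls2, the only glutaminase gene among the 9, was close to undetected in this kidney. Over all 4 libraries PT S1-S2 held 20 Gls2 UMIs and PT S3 held 3, and thick ascending limb, connecting tubule, intercalated cells, neutrophils and innate lymphoid cells held 0, which allows at most 0.276, 0.770, 0.366, 0.221 and 0.584 CPM for each in turn (3 counts, counting error only). Endothelium was the one tested class whose 4 library values lay above those of the next class, with 1.60 and 1.97 CPM under BPTES and 1.94 and 1.02 CPM under DMSO, from 16, 11, 17 and 14 UMIs. Fibroblasts, which were too few to test, held 1 and 1 Gls2 UMIs under BPTES and 2 and 18 under DMSO. In endothelium the groups overlapped and the log2 fold change of BPTES over DMSO was 0.31 (SE 0.48, adjusted p from edgeR 0.864).

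Glul, glutamine synthetase, was a proximal tubule transcript with further high sites outside the tubule. In PT S3 it stood at 233.1 and 206.5 CPM under BPTES and at 219.3 and 190.0 CPM under DMSO, and all 4 values lay above those of PT S1-S2, which were 172.7 and 171.5 CPM with BPTES and 182.2 and 173.7 CPM with DMSO. The S3 level was 1.21 ± 0.105 times the S1-S2 level (SD, n = 4 libraries). This order depended on which cells were kept: the ratio was 0.999 ± 0.189 with a 25% mitochondrial limit and 1.04 ± 0.125 with predicted doublets kept, and in both cases S3 was the higher segment in 2 of 4 libraries. Innate lymphoid cells came next but scattered widely, from 104.2 to 258.8 CPM, so that they overlapped both PT S1-S2 and macrophages (88.3 to 124.1 CPM). The lowest levels were in principal cells (mean 18.7 CPM) and thick ascending limb (12.7 ± 5.98 CPM, SD, n = 4), at a mean 16.7-fold below PT S3. The class with the highest mean changed as well. With the 25% limit it was PT S1-S2 (195.5 CPM, against 194.3 CPM in PT S3). With predicted doublets kept, endothelium stood at 186.6 CPM and PT S3 at 185.1 CPM, and the endothelial class then held a cluster of 997 cells that shares 6 of its 10 leading genes with cluster 25, described next.

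The highest Glul of any cluster was in cluster 25, 508 cells that stayed unnamed because Aqp1, a thin limb marker of the fixed lists, was among its 10 leading genes. The other leading genes were Cldn5, Lgr5, Sox17, Edn1, Epha6, Gja4, Tspan8, Scin and Fbln5, and all 9 endothelial markers were detected in it. Glul stood there at 671 and 675 CPM under BPTES and at 819 and 899 CPM under DMSO. In the 3 larger clusters of the endothelial class it ran from 38.7 to 112 CPM. Both BPTES libraries were below both DMSO libraries in cluster 25, and the log2 fold change was -0.37 (SE 0.11, adjusted p from edgeR 0.266, unadjusted p 0.00420), so the difference did not pass; in that cluster 0.576% of 10755 genes did. This cluster was singled out after its values were seen.

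**Figure D1:**
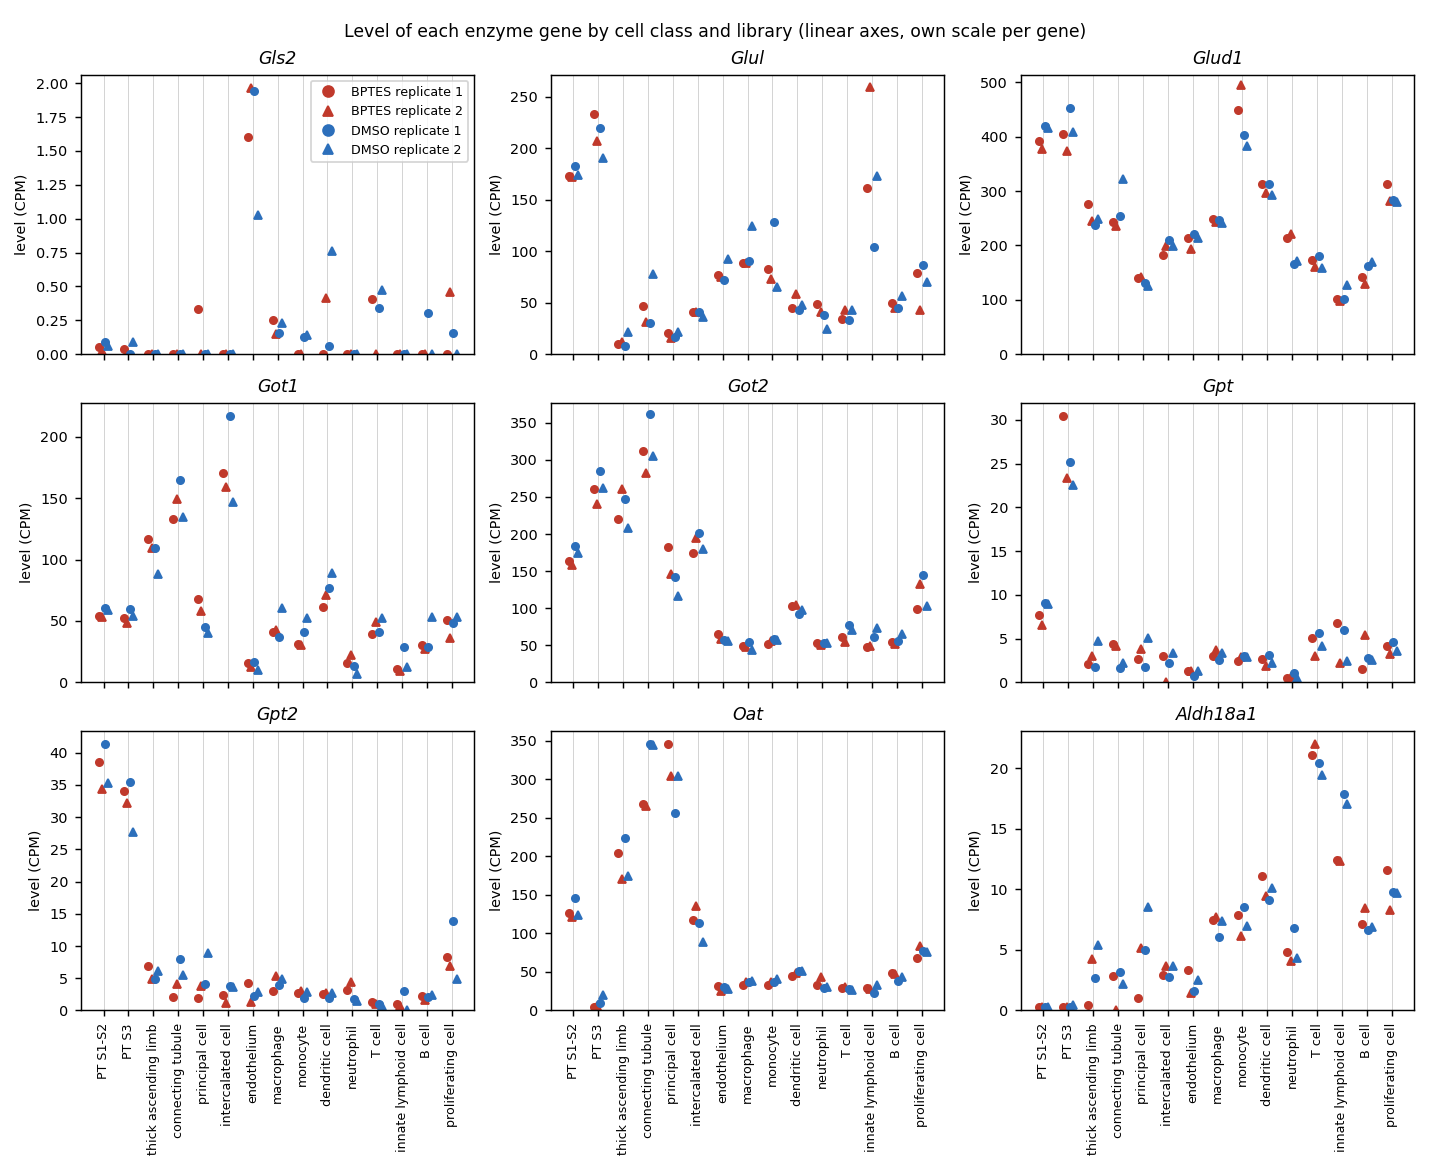
Level of each of the 9 genes (vertical axes, CPM, linear, a scale per gene) in the 15 tested cell classes, with 1 point per library (red BPTES, blue DMSO, circle replicate 1, triangle replicate 2). By the means over libraries, Glul, Gpt and Gpt2 peak in proximal tubule (Glul in endothelium with predicted doublets kept), Oat in connecting tubule and principal cells with a gap at PT S3, Aldh18a1 in T cells, and Gls2 stays under 2 CPM in every class.

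Glud1, glutamate dehydrogenase, was the most evenly spread of the 8 genes for which a ratio could be taken, with a mean of 432 CPM in the highest tested class and 107 CPM in the lowest (4.04-fold). Monocytes had 449.3 and 494.4 CPM under BPTES and 402.8 and 382.9 CPM under DMSO, PT S3 had 374 to 454 CPM and PT S1-S2 378 to 420 CPM, so these 3 classes overlapped in the order. PT S1-S2 lay above dendritic cells, the next class (292 to 314 CPM), without overlap. Innate lymphoid cells were lowest (107 ± 13.4 CPM, SD, n = 4). Within classes clusters differed as well: the neutrophil clusters 16 and 45 stood at 109 ± 6.56 and 390.9 ± 43.95 CPM (SD, n = 4), and within PT S1-S2 cluster 8 reached 671 ± 50.0 CPM. Cluster 45 (134 cells) scored 3.79 for the neutrophil list and 2.56 for the monocyte list. Its median UMIs were 2.05 of the sample median, against 0.646 in cluster 16. Whether it holds droplets of mixed cells was not tested.

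The aspartate aminotransferases peaked in the distal nephron. Got1, the cytosolic form, was highest in intercalated cells, at 170.8 and 159.3 CPM under BPTES and 217.4 and 147.3 CPM under DMSO, and these values overlapped those of connecting tubule (133 to 165 CPM). Thick ascending limb followed at 88.5 to 116.5 CPM, and PT S1-S2 and PT S3 had means of 56.7 and 53.5 CPM against 174 CPM in intercalated cells. Endothelium (13.7 ± 2.93 CPM) and neutrophils (14.5 ± 6.38 CPM, SD, n = 4) were lowest. Got2, the mitochondrial form, was highest in connecting tubule (282 to 361 CPM), followed by PT S3 (241 to 285 CPM) and thick ascending limb (209 to 260 CPM), each overlapping the next. The tested leukocyte classes other than dendritic and proliferating cells had Got2 means of 48.5 to 65.7 CPM. Got2 in PT S3 was 1.54 ± 0.0379 times that in PT S1-S2 (SD, n = 4), but 1.05 ± 0.129 times with the 25% mitochondrial limit, where S3 was higher in 2 of 4 libraries. Got1 was nearly level between the segments (0.942 ± 0.0448), and lower in S3 with that limit (0.713 ± 0.0970).

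Both alanine aminotransferase genes had their highest means among the tested classes in proximal tubule, and Gpt differed by segment. Gpt stood at 30.4 and 23.4 CPM under BPTES and 25.1 and 22.5 CPM under DMSO in PT S3, above PT S1-S2 with 7.67 and 6.58 CPM under BPTES and 9.04 and 8.95 CPM under DMSO, without overlap. The ratio was 3.20 ± 0.672 (SD, n = 4). T cells came next at a mean of 4.46 CPM, and with predicted doublets kept PT S1-S2 held 5.61 to 6.79 CPM. Natural killer and thin limb cells, too few to test, stood at 45.8% and 43.4% of the Gpt level of all proximal tubule. Gpt2 was at 34.4 to 41.3 CPM in PT S1-S2 and 27.7 to 35.4 CPM in PT S3, which overlapped, and no library of another tested class exceeded 13.9 CPM.

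Oat, ornithine aminotransferase, broke sharply between the proximal segments. It was highest in connecting tubule (267.6 and 264.9 CPM under BPTES, 345.5 and 343.5 CPM under DMSO) and in principal cells (345.0 and 303.8 under BPTES, 256.0 and 303.4 under DMSO), which overlapped. PT S1-S2 held 121.5 to 145.9 CPM. PT S3 was the lowest of all 15 classes, with 4.13 and 5.74 CPM under BPTES and 9.40 and 20.2 CPM under DMSO, that is 3.26%, 4.73%, 6.44% and 16.2% of the S1-S2 level of the same libraries. Among the S1-S2 markers with the lowest share in PT S3, Slc5a12, a lactate transporter, stood at 0.929% to 1.26% there, Slc5a2, the apical glucose transporter of early proximal tubule, at 3.72% to 4.96%, and Slc6a19, an apical neutral amino acid transporter, at 5.78% to 7.69%. The Oat share depended on the cells taken into the class: over the 4 libraries it was 2.26% to 8.69% with the 25% mitochondrial limit, 11.5% to 18.0% at clustering resolution 2 (levels of 15.6 to 26.2 CPM) and 12.3% to 19.5% with predicted doublets kept (17.4 to 29.7 CPM). With doublets kept the S3 class also held Slc5a12 at 40.3% to 63.95% of its S1-S2 level, and at resolution 2 at 2.66% to 4.16%.

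Aldh18a1 had the opposite pattern to Gpt2: T cells were highest (21.1 and 22.0 CPM under BPTES, 20.5 and 19.5 CPM under DMSO), followed without overlap by innate lymphoid cells (12.3 to 17.9 CPM). PT S1-S2 and PT S3 were lowest, at means of 0.282 and 0.339 CPM from 100 and 28 UMIs. The T cell mean was 73.6 times that of PT S1-S2. Fibroblasts (8.56 to 23.03 CPM) and natural killer cells (12.4 to 23.8 CPM), both too few to test, were in the range of the lymphocytes.

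**Figure D2:**
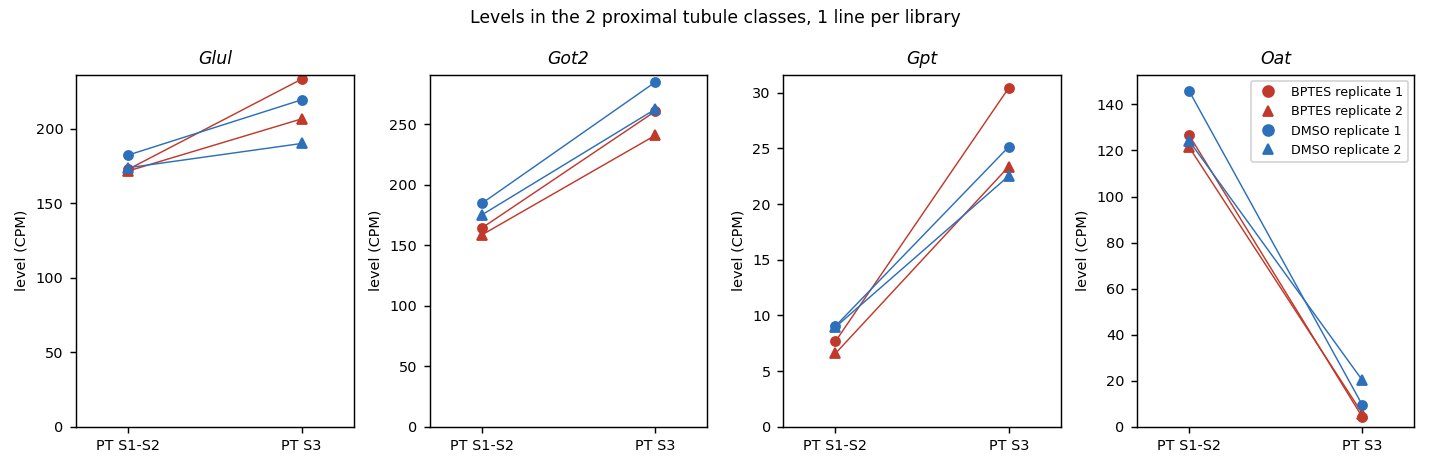
Levels (CPM, linear axes from 0) of Glul, Got2, Gpt and Oat in PT S1-S2 and PT S3, 1 line per library (red BPTES, blue DMSO, circle replicate 1, triangle replicate 2). Glul, Got2 and Gpt rise from S1-S2 to S3 in each of the 4 libraries and Oat falls in each, while Glul and Got2 with a 25% mitochondrial limit, and Glul with predicted doublets kept, rise in 2 of the 4.

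Free RNA from proximal tubule, the largest class, could add counts to other droplets. In T cells, 10 genes of proximal tubule stood at 0.961% to 1.99% of their proximal tubule level and in macrophages at 0.638% to 14.7%. Of the 9 enzymes, Gpt2 came nearest to this level: it stood at 2.62% in T cells, above all 10 genes, and at 11.97% in macrophages, above all but 1 of them. The other enzymes apart from Gls2 stood above all 10 genes in every leukocyte class. Connecting tubule consisted of cluster 14 alone, whose cells were shallow (median UMIs 0.110 of the sample median) and also carried Pvalb of the distal convoluted tubule list, so Got2 and Oat levels in that class rest on few UMIs per cell; those 10 genes stood at 3.45% to 11.4% there.

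Genes with the most similar pattern over the 15 class means (Pearson r of log2(CPM + 1), 13201 genes compared) were named for the 8 genes reaching 10 CPM. These correlations share libraries and classes and carry no test. The closest to Got2 were Atp5k (r 0.978), Mrpl42 (0.977) and Cox5b (0.9754), and the closest to Gpt2 were Slc22a18 (0.959), Slc22a22 (0.954) and Cryl1 (0.952). Aldh18a1 was nearest to Ptpn18 (0.951), Gm11110 (0.939) and Def6 (0.936), and Gpt to Rpp40 (0.950), Shmt2 (0.936) and Wdr55 (0.934). For Oat they were Acss3 (0.910), Efemp1 (0.892) and Gys1 (0.892), for Got1 Plin3 (0.868), Selenos (0.859) and Spint1 (0.853), for Glud1 Gpx1 (0.855), Gnpda1 (0.850) and Fam213b (0.843), and for Glul Aup1 (0.814), Ccdc22 (0.806) and Gcnt1 (0.804).

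BPTES was then compared with DMSO in each class with edgeR's quasi-likelihood test over all genes. Of 135 possible pairs of the 9 genes and 15 classes, 107 had enough counts to be tested, and none passed an adjusted p of 0.05. Over all genes 1.02% of 173963 pairs passed. At an unadjusted p under 0.05 there were 11 of the 107 pairs (10.3%), 4 higher and 7 lower under BPTES, against 14.5% of all pairs. DESeq2 called 1 pair, Oat in PT S3 (2.36% of all pairs). Single libraries moved the fold changes, and a fit without 1 library has 1 library in a group and takes its spread from the other. A call gained or lost in such a fit therefore does not decide whether an effect is present. Without DMSO replicate 1, Got1 went from -0.50 to -0.88 in B cells and -0.23 to -0.55 in macrophages. It went from -0.56 to -0.75 in monocytes and 0.91 to 1.48 in neutrophils. Glul went from -0.27 to -0.49 in macrophages and 0.47 to 0.89 in neutrophils, and Oat in PT S3 from -1.58 to -2.06. Without DMSO replicate 2, Glul in monocytes went from -0.29 to -0.67. These pairs were picked by the tests in those fits and show how far values moved. Over all fits without 1 library, Got1 ran from -0.88 to 0.08 in B cells and -0.55 to 0.16 in macrophages. Its range was -0.75 to -0.37 in monocytes and 0.43 to 1.48 in neutrophils. Glul ran from -0.49 to -0.03 in macrophages, 0.11 to 0.89 in neutrophils and -0.67 to 0.28 in monocytes. Cluster 47, which also scored for the macrophage list, made up 1.68% and 1.32% of B cells under BPTES and 6.47% and 21.2% under DMSO. Neutrophil cluster 45 made up 18.75% and 16.4% against 6.97% and 8.98%. Neither part was tested. CPM of the 2 groups did not overlap in 46.4% of all 173963 pairs, so a lack of overlap, given for single pairs below, was common. The fold changes centred on 0 (median -0.01, all genes -0.00), and 87.9% of them were smaller than 0.5 on the log2 scale in either direction, against 83.9% over all genes.

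**Figure D3:**
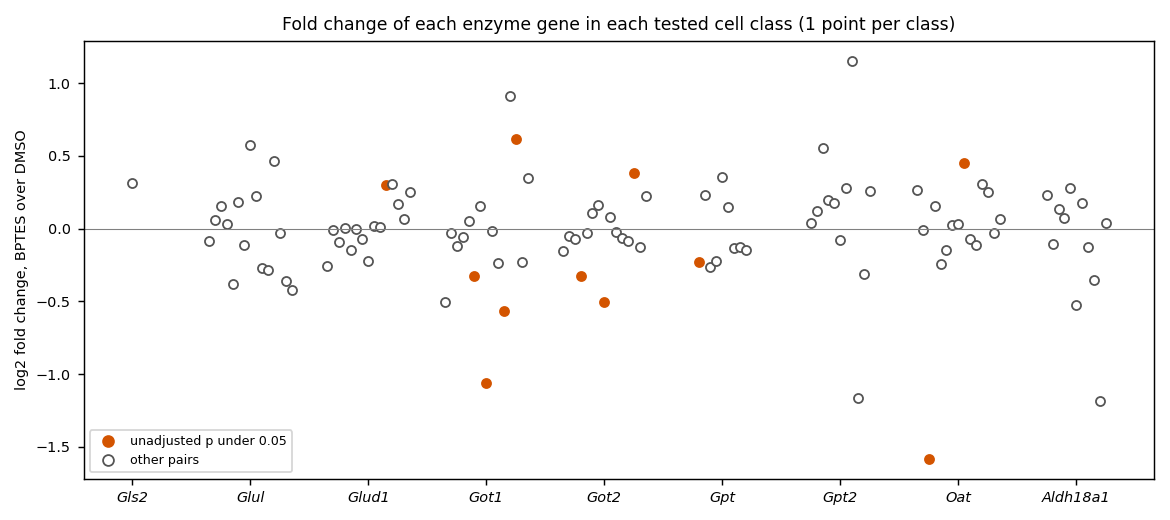
log2 fold change of BPTES over DMSO (vertical axis) for each gene, with 1 point per tested class and the 11 pairs at an unadjusted p under 0.05 filled in orange. The points of each gene lie on both sides of 0 except for Gls2, tested in 1 class, and the lowest filled point is Oat in PT S3 at -1.58.

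In the sum of all proximal tubule cells 8 of the 9 genes could be tested. Glud1 had 394.5 and 377.1 CPM under BPTES and 425.6 and 405.7 CPM under DMSO, and after library scaling the log2 fold change was -0.00 (SE 0.09, 95% interval -0.22 to 0.21, adjusted p from edgeR 0.985). The unscaled groups did not overlap. The median mitochondrial share of these cells was 15.8% and 21.2% under BPTES and 11.8% and 14.8% under DMSO, and its part in the CPM was not tested. Glul (184.9, 175.8, 190.0 and 177.9 CPM in the order BPTES 1 and 2, DMSO 1 and 2) had a log2 fold change of 0.08 (interval -0.12 to 0.28), and the groups overlapped. The fold changes were -0.04 for Got1 (-0.23 to 0.14), -0.08 for Got2 (-0.28 to 0.12), -0.08 for Gpt (-0.42 to 0.26), 0.05 for Gpt2 (-0.17 to 0.27) and 0.03 for Oat (-0.21 to 0.27). None of these 8 tested genes passed or had an unadjusted p under 0.05 (edgeR; DESeq2 also called 0), and over all genes 0.129% of 16322 passed. For Glud1, Glul, Got1, Got2, Gpt2 and Oat the intervals thus lay wholly between -0.28 and 0.28.

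Aldh18a1 had the widest interval in proximal tubule, resting on 36, 28, 45 and 73 UMIs in the order BPTES 1 and 2, DMSO 1 and 2 (log2 ratio -0.78, SE 0.36, interval -1.65 to 0.10, p adjusted by edgeR 0.279). Within PT S1-S2 it had 27, 22, 28 and 23 UMIs in the same order and within PT S3 7, 4, 7 and 10. The sum also holds cells of an injured proximal tubule class (27 and 25 cells under BPTES, 191 and 239 under DMSO), which gave 2, 2, 10 and 40 of the Aldh18a1 UMIs. Without DMSO replicate 1 the sum was called (-1.13), in a fit where 10.1% of all genes passed.

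**Figure D4:**
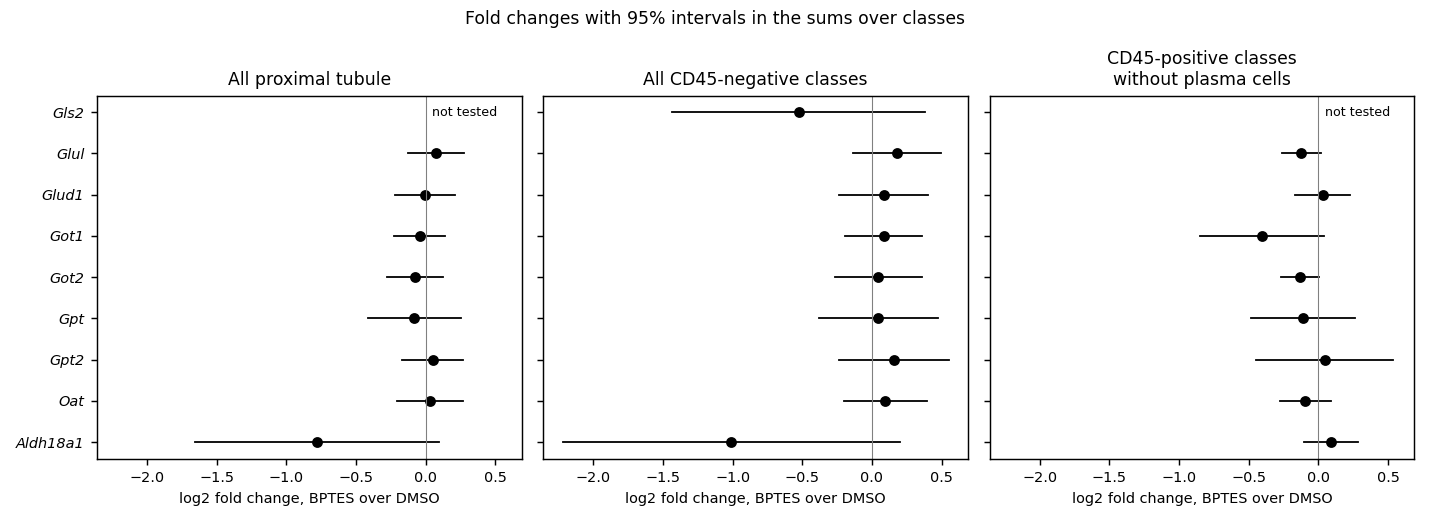
log2 fold change of BPTES over DMSO (horizontal axis, point) with its 95% interval (line) for each gene in the sum of all proximal tubule cells, of all CD45-negative classes and of the CD45-positive classes without plasma cells. Every interval includes 0, and those of Gls2 and Aldh18a1 in the CD45-negative sum are the widest.

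Over all CD45-negative classes, edgeR called 0 of the 9 genes and 0% of 18450 genes (2308 at an unadjusted p under 0.05, none of the 9 among them), while DESeq2 called 496 genes and 0 of the 9. Without DMSO replicate 1, Aldh18a1 was called there (-1.53), and so were 12.7% of 19181 genes; fibroblasts, which read this gene far above proximal tubule, numbered 12 and 16 cells under BPTES and 34 and 182 under DMSO, and their part was not tested. Over the CD45-positive classes without plasma cells, 0 of 8 tested members passed, against 5.82% of 16764 genes. There Got1 was at 38.3 and 43.0 CPM under BPTES and 45.9 and 60.9 under DMSO (log2 ratio -0.40, SE 0.17, p adjusted by edgeR 0.202), Got2 at 61.8 and 61.7 against 68.4 and 66.0 (-0.13, SE 0.05, adjusted p 0.178) and Glul at 66.8 and 68.7 against 73.1 and 73.4 (-0.12, SE 0.06, adjusted p 0.230). These 3 genes had both BPTES libraries below both DMSO libraries, and Aldh18a1 had both above (10.92 and 10.91 against 10.15 and 10.21 CPM), while 60.2% of the 16764 genes had groups that did not overlap in one direction or the other. The make-up of the sum differed too: it held 294 and 273 dendritic cells under BPTES against 469 and 373 under DMSO, 135 and 189 natural killer cells against 94 and 44, and 141 and 97 innate lymphoid cells against 61 and 50, and its part was not tested. None of the 8 had an unadjusted p under 0.05, and DESeq2 called none, but without DMSO replicate 1 Got1 was called (-0.59, adjusted p 0.0157), with 10.3% of all genes.

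Got1 held 4 of the 11 pairs. In monocytes it was at 31.1 and 30.5 CPM under BPTES and at 41.3 and 52.4 under DMSO, with no overlap (log2 ratio -0.56, SE 0.15, p adjusted by edgeR 0.0596, the smallest of the 107), in a class where 8.97% of 12327 genes passed. Without DMSO replicate 1 it was called (-0.75), as were 6.52% of all genes, and at clustering resolution 2 it was -0.32. The class joins cluster 15, with Chil3, Fn1 and Plac8 among its 10 leading genes, and cluster 19, with Ace, Treml4 and Ear2 among them, and Got1 differed between them (48.5 ± 11.2 and 9.11 ± 3.42 CPM, SD, n = 4). Cluster 15 made up 47.7% and 52.5% of the monocytes under BPTES and 67.0% and 62.4% under DMSO. Fitted alone, Got1 was lower in cluster 15 (42.1 and 39.2 CPM against 48.6 and 64.2; -0.42, SE 0.17, adjusted p from edgeR 0.217) and higher in cluster 19 (10.98 and 12.9 CPM against 6.77 and 5.74; 0.87, SE 0.35, adjusted p 0.277). Neither passed, and 2.04% and 0.858% of all genes did in these clusters. The class had the direction of cluster 15 and not of cluster 19, and its value of -0.56 lay below those of both. The part of the make-up given above was not tested.

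In principal cells Got1 went the other way, with 68.3 and 58.4 CPM under BPTES and 44.7 and 40.6 under DMSO (0.61, SE 0.16, adjusted p from edgeR 0.191) and no overlap. In dendritic cells it was at 61.8 and 71.4 CPM under BPTES and 76.8 and 89.2 under DMSO (-0.33, SE 0.11, adjusted p 0.152). That class joins cluster 13 (Cd209a and Clec10a among its leading genes), which made up 63.3% and 59.7% of its cells with BPTES against 82.1% and 70.5% with DMSO, and cluster 28 (Xcr1 and Clec9a). Got1 was at 79.9 and 94.0 CPM against 86.8 and 109.4 in cluster 13 and at 37.3 and 44.04 CPM against 36.1 and 44.6 in cluster 28, so that the groups overlapped within each. Innate lymphoid cells had 21 and 13 Got1 UMIs under BPTES and 29 and 10 under DMSO (10.9 and 9.42 against 28.8 and 12.2 CPM; -1.06, SE 0.43, adjusted p 0.441), and without DMSO replicate 1 the value was -0.27. The difference between principal cells and monocytes, fitted as an interaction, was 1.18 (SE 0.23, adjusted p from edgeR 0.0290). These classes were picked because their fold changes had opposite signs, and the adjustment covers the genes and not that choice, so the value describes the levels above and supports nothing beyond them; the same holds for the other interactions added below. In that fit 1.46% of 13566 genes passed. The adjusted p was 0.132 without BPTES replicate 1, 0.0959 without BPTES replicate 2 and 0.319 with DESeq2, and the make-up of the monocyte class given above moves with it; its part was not tested.

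**Figure D5:**
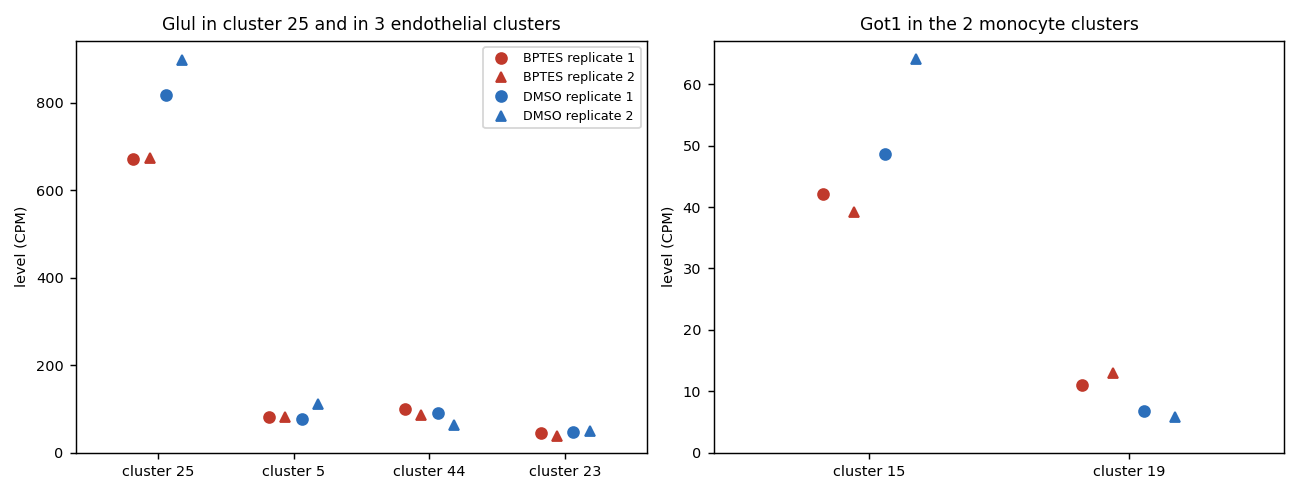
Levels (CPM, linear axes from 0) of Glul in cluster 25 and in the 3 larger endothelial clusters, and of Got1 in the monocyte clusters 15 and 19, 1 point per library (red BPTES, blue DMSO, circle replicate 1, triangle replicate 2). Glul in cluster 25 lies between 671 and 899 CPM, and Got1 in cluster 15 lies above cluster 19 in every library.

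Got2 held 3 of the pairs. In T cells it was at 61.6 and 53.9 CPM under BPTES and 77.1 and 70.1 under DMSO (-0.33, SE 0.09, adjusted p from edgeR 0.177), and in innate lymphoid cells at 47.1 and 49.3 against 61.5 and 73.1 (-0.50, SE 0.20, adjusted p 0.423). Principal cells again went the other way, with 182.1 and 145.9 CPM against 142.2 and 116.9 (0.38, SE 0.16, adjusted p 0.374). The groups did not overlap in any of these 3 classes. Cluster 33 made up 6.56% and 14.5% of the T cells under BPTES against 3.36% and 4.23% under DMSO, and its part was not tested. The interaction of principal cells and T cells, also added after seeing the values, was 0.70 for Got2 (SE 0.17, adjusted p from edgeR 0.135), in a fit where 0.142% of 14098 genes passed, so the effects were not shown to differ; without DMSO replicate 1 the interaction passed (0.78), as did 2.87% of all genes. Glud1 in monocytes was 0.30 (SE 0.10, adjusted p 0.101), with both BPTES values, given above, over both DMSO values. It was 0.05 with the 25% mitochondrial limit and 0.07 at clustering resolution 2. Fitted alone, cluster 15 gave 0.38 (SE 0.12, adjusted p from edgeR 0.148) and cluster 19 gave 0.05 (SE 0.12, adjusted p 0.891).

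Oat in PT S3 had the largest fold of the 107 pairs. Its counts of 102 and 71 with BPTES, against 222 and 444 with DMSO, gave the levels above, which did not overlap, and a log2 ratio of -1.58 (SE 0.44, 95% interval -2.68 to -0.49, adjusted p from edgeR 0.528, unadjusted p 0.0125). The value rests on DMSO replicate 2: it was -0.86 without that library and -2.06 (adjusted p 2.4e-04) without DMSO replicate 1, where 0.498% of all genes passed. DESeq2 called it (-1.55, adjusted p 0.00723; 0.536% of all genes), a 25% mitochondrial limit did (-1.40; 5.03%) and finer clustering did (-0.64; 0.759%), while with predicted doublets kept it was -0.34 and not called. The S1-S2 marker Slc5a12 in PT S3 was at 16.4 and 19.9 CPM under BPTES and 18.7 and 14.3 under DMSO, and Slc5a2 at 29.6 and 42.5 against 26.9 and 22.5. In PT S1-S2 itself Slc5a2 was at 797 and 868 CPM under BPTES and 542 and 604 under DMSO. What part cells or free RNA of other classes had in Oat of PT S3 was not tested.

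The other Oat pair, intercalated cells, was at 117.5 and 135.4 CPM under BPTES and 113.3 and 88.5 under DMSO (0.45, SE 0.18, adjusted p from edgeR 0.514). The interaction of intercalated cells and PT S3 was 1.99 (SE 0.54, adjusted p 0.454; 0.314% of 13055 genes passed), and it passed without DMSO replicate 1 (2.73; 1.37%). Gpt in PT S1-S2 was lower under BPTES by its levels above, without overlap (-0.23, SE 0.10, adjusted p 0.212), but with predicted doublets kept the value was 0.0012. Its clusters 6 and 7, where Gpt was highest (13.3 ± 1.45 and 14.5 ± 1.07 CPM, SD, n = 4), made up 19.5% and 16.7% of PT S1-S2 cells with BPTES against 28.6% and 30.7% with DMSO, and the part of this make-up was not tested. Its effect in PT S3 minus that in PT S1-S2 was 0.44 (SE 0.16, unadjusted p 0.00645, adjusted p from edgeR 0.123), and that of Oat was -1.53 (SE 0.78, adjusted p 0.691; called at -2.13 without DMSO replicate 1, with 1.28% of all genes). Of the 8 genes in this comparison of segments none passed, 1 (Gpt) had an unadjusted p under 0.05 and DESeq2 called none, against 3.27% of 15162 genes.

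The 37 other genes of the pathway gave 423 pairs in the 15 classes, of which 1 passed and 67 (15.8%) had an unadjusted p under 0.05, against 1.02% and 14.5% of all pairs. The list of glutamine entry and amidotransferase genes had that 1 pair of 137. It was Gfpt1, which makes glucosamine 6-phosphate from glutamine and rose in monocytes from 78.6 and 99.9 CPM under DMSO to 182 and 156 CPM under BPTES (0.96, SE 0.15, adjusted p from edgeR 0.0195), in the class where 8.97% of all genes passed. DESeq2 called it, where 8.62% of all genes passed, as did RLE scaling (8.92%) and the replicate block (4.83%). So did the fits without the count filter (12.5%) and with the enzymes and pathway genes in the clustering (12.2%). It was not called with predicted doublets kept (0.89, where 4.44% of all genes passed) or at clustering resolution 2 (0.47, 1.12%). Nor was it called with the 25% mitochondrial limit (0.32, adjusted p from edgeR 0.538), where 0.546% of all genes passed. With 1 library left out the value ran from 0.78 to 1.15, in fits that cannot decide whether the call holds. Since the make-up of the monocytes differed between groups, its clusters were also fitted alone. Gfpt1 rose in cluster 15 from 54.3 and 52.0 CPM under DMSO to 98.1 and 84.9 under BPTES (0.82, SE 0.11, adjusted p from edgeR 0.0343). In that cluster 2.04% of 11653 genes passed. With 1 library left out the Gfpt1 value there ran from 0.74 to 0.88, in fits that cannot decide whether the call holds. In cluster 19 Gfpt1 did not pass, with 335.6 and 298.8 CPM against 192.7 and 289.3 (0.38, SE 0.18, adjusted p from edgeR 0.382). Other aminotransferases, proline and glutamate semialdehyde genes, and the list of ammoniagenesis, 2-oxoglutarate and carriers had 0 of 101, 72 and 113 pairs, with 23, 9 and 12 at an unadjusted p under 0.05. In the CD45-positive sum without plasma cells, whose make-up differed as given above, Gfpt1 (0.42, SE 0.06, adjusted p 0.0288) and Ctps2, a CTP synthase (0.39, SE 0.08, adjusted p 0.0463), rose, and Gatm, the first enzyme of creatine synthesis, fell by 0.45 (SE 0.06, adjusted p 0.0245), where 5.82% of all genes passed. Without BPTES replicate 1 the fold changes were 0.38 for Gfpt1, 0.48 for Ctps2 and -0.50 for Gatm. Without BPTES replicate 2 they were 0.45, 0.29 and -0.41 in turn. Each of these fits has 1 BPTES library, so it cannot decide whether the calls hold. With predicted doublets kept Ctps2 (0.39, adjusted p from edgeR 0.0542) and Gatm (-0.34, adjusted p 0.0645) did not pass, where 3.31% of all genes did. At resolution 2 Ctps2 did not (0.37, adjusted p from edgeR 0.0692), where 1.4% did. In the proximal tubule sum 0 of the 35 tested pathway genes passed.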

How the data were processed

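The deposited matrices hold raw UMI counts per gene and barcode; the authors made them with Cell Ranger 8.0.1 on mm10, per the submitters' processing notes, and the annotation is not given in the sources used here. Barcodes with at least 500 UMIs, 300 genes and at most 50% mitochondrial UMIs were kept (lowest total 500 in each library), and 3867 cells with the highest Scrublet scores were removed as doublets (Scrublet's own threshold marked 592). The 46738 cells were scaled to 10000 counts and clustered in scanpy 1.11.5 (3000 variable genes without the 9 enzymes and 37 pathway genes, 40 components, 15 neighbours, leidenalg 0.10.2, resolution 1). Clusters were named from 26 marker lists (175 genes) by the best-scoring list, unless under 3 markers were detected in 20% of cells, markers of another type led the 10 top genes, or the cells' median UMI count was under 1/3 of their sample's with no marker of the list among those genes (3 of the 5 unnamed clusters).

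Sums of UMI counts over the cells of a class in a library were tested with edgeR 4.0.16 (robust quasi-likelihood, TMM, filterByExpr, Benjamini-Hochberg within a class, threshold 0.05); DESeq2 1.42.0 was an alternative. Interactions had library as a block. All 9 enzymes are named, with tests in the proximal tubule sum and for each pair at an unadjusted p under 0.05. Similar genes are the top 3 by Pearson r among genes reaching 10 CPM, and pathway genes are named if called. The script was tested on simulated data. Other alternatives were RLE scaling, no count filter, a replicate block, each library left out, a 25% mitochondrial limit, doublets kept, resolution 2 and the enzymes in the clustering. The genes and lists were chosen with earlier results of these data known. The clusters fitted by number, the interactions other than that of the segments, and the fits without 1 cluster were added after seeing the data. Intervals and floors of 3 counts cover counting error only where so stated.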

Additional observations from a re-analysis of the deposited data

Results flagged for a closer look

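The BPTES fold change of Got1 in principal cells minus that in monocytes was 1.18 on the log2 scale (edgeR interaction, adjusted p 0.0290). The 2 classes were chosen because their fold changes had opposite signs, and the adjustment covers the genes and not that choice, so this is a description. In that fit 1.46% of 13566 genes passed. All 5 alternative fits kept the direction (0.93 to 1.43). With DESeq2 the value did not pass (adjusted p from DESeq2 0.319), where 0.871% of all genes did. The other alternatives each leave out 1 library and reuse the rest, so their direction is not independent of the main fit. Within the monocytes cluster 19, which is low in Got1, had a fold change of 0.87 and cluster 15 one of -0.42, neither of which passed, and cluster 19 made up 52.3% and 47.5% of the monocytes under BPTES against 33.0% and 37.6% under DMSO.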

How the results depend on the processing

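Among all genes the 1772 called pairs became 4089 with DESeq2, 10670 without the count filter, 6049 with the replicate block and 4489 with a 25% mitochondrial limit, and 382 to 6934 with a library left out. The pairs called among the 9 enzymes, 0 as reported, were 1 with DESeq2, 5 without the count filter, 3 with the replicate block (Oat in PT S3 at -1.44, adjusted p 1.2e-09, Got2 in T cells, Got1 in dendritic cells), 3 with the 25% limit, 2 at clustering resolution 2 and 0 to 7 with a library left out. Among all genes the share of pairs called was 1.02% as reported, 2.36% with DESeq2 and 3.72% without the count filter. It was 3.48% with the replicate block, 2.81% with the 25% limit and 0.749% at clustering resolution 2. Fits with a library left out have 1 library in a group, so their counts are not set against a share. Of the sums over classes, the CD45-positive one had 1 enzyme called with the replicate block. It was Got1, in a fit where 6.46% of all genes passed. The segment comparison gave 3 calls with the 25% limit (Glul 0.53, Got2 0.36 and Gpt 0.59, where 32.2% of all genes passed), 1 at resolution 2 (Oat -0.54, 5.49%) and 0 to 1 with a library left out. The labels do not say that same-numbered libraries belong together, and their deviations correlated at -0.16 (B cells) to 0.24 (PT S3), which 2 pairs cannot settle, so no pairing was assumed. With the numbers crossed, run in B cells and neutrophils alone, where the correlation was under -0.1, 778 and 6 genes were called, against 448 and 18 with the block.

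Gpt in PT S1-S2 went from -0.23 to 0.0012 with doublets kept. Fold changes near 0 changed sign in the proximal tubule sum: Glud1 with DESeq2 (0.016) or RLE scaling (0.012) and Oat with the 25% limit (-0.078). With a library left out this sum gave -0.027 to 0.047 for Glud1, -0.087 to 0.029 for Got1, -0.257 to 0.094 for Gpt, -0.040 to 0.151 for Gpt2 and -0.062 to 0.150 for Oat. The cause was not tested. The class with the highest mean also changed, as for Glul with doublets kept (186.6 CPM in endothelium, up from 79.2, and 185.1 CPM in PT S3) and with the 25% limit (195.5 CPM in PT S1-S2 and 194.3 CPM in PT S3), and for Got1 with the 25% limit (202.6 CPM in connecting tubule and 178.7 CPM in intercalated cells). The count filter left 107 of 135 pairs to be tested.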

Other observations

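Genes of other aminotransferases had 22.8% of their 101 pairs at an unadjusted p under 0.05, and the 4 lists together 15.8%, against 14.5% over all genes. In macrophages Glul was at 88.8 and 88.3 CPM under BPTES and 89.98 and 124.1 CPM under DMSO (log2 ratio -0.27, SE 0.15, p adjusted by edgeR 0.351), where 0.988% of all genes passed. It was called with the 25% mitochondrial limit (-0.46) and at clustering resolution 2 (-0.48), in fits where 2.67% and 2.49% of all genes passed. Without DMSO replicate 1 the value was -0.49. The class holds cluster 17 (902 cells), with Themis and Cd8b1 among its leading genes. That cluster scored 2.13 for the macrophage list and 1.69 for the T cell list. Without it Glul was also lower under BPTES and was not called, in a fit where 2.04% of all genes passed. Glul in neutrophil clusters 16 and 45 stood at 29.2 ± 7.06 and 59.8 ± 15.1 CPM (SD, n = 4), and in monocyte clusters 15 and 19 at 103 ± 31.5 and 38.5 ± 13.6 CPM. Cluster 45 also scored for the monocyte list, as given above.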
